A study of Mus musculus with 6 samples.

Results

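The extracellular matrix of early embryonic cells is built from secreted chains and read by receptors on the cell surface. Collagens and laminins are the structural chains, lysyl oxidases are secreted copper enzymes that cross-link collagen and elastin, and integrins are paired alpha and beta receptors that bind matrix outside the cell and the actin skeleton inside it. The genes of these 4 subfamilies were taken by symbol pattern (Col, Lam, Lox and Itg gene names) from the authors' deposited table of 17110 genes, which gave 63 genes: 32 collagens, 9 laminins, 5 lysyl oxidases and 17 integrins. GENCODE M21 lists 81 symbols of these patterns. Of these, 18 (12 collagens, 2 laminins, 4 integrins), among them Col3a1, Itga2 and Lama2, had no row in the deposited table and were not analysed here. The patterns leave out Itga2b and the alpha chains with letter names other than Itgav and Itgax.

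The cells were mouse embryonic stem cells of the line labelled TG2A, whose genotype is given as a fluorescent protein under MERVL control. MERVL is an endogenous retrovirus switched on in the cleavage embryo and in rare cultured stem cells. All 6 samples carry the reporter and were grown in serum with leukemia inhibitory factor. Flow sorting gave MERVL::DsRed2+ and MERVL::DsRed2- cells, with 3 biological replicates of each collected on different dates, and polyadenylated RNA was sequenced. The labels do not say whether TG2A is 1 clone.

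The authors' deposited table gives 1 log2 fold change per gene, with its standard error and adjusted p-value, and 1 mean normalized count over the libraries. Its lowest mean count is 5.58. Genes near that value, such as Lox (5.78), may have a row through 1 group alone, and they are counted below. The table holds no value per sample, and the depth per library is unknown here. It names neither the groups it compares nor which of them is the numerator. The groups were taken to be the sorted cells because the labels list no others, and a fold change below is called positive or negative as the table has it. Fold changes are on the log2 scale and are written ± the authors' standard error. A gene is described as called where the deposited adjusted p-value was under 0.05. Bulk RNA cannot tell fewer cells of a type from less RNA per cell.

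Pluripotency markers served as a check of the cell type, and 12 of 13 listed markers had a row in the authors' deposited table. The lowest mean count among these 12 was 1259.6. Of the 12, 8 (66.7%) were called positive, led by adjusted p-value by Tbx3 (2.39), Zfp42 (1.10) and Dppa5a (1.29). The share called positive was 14.6% over all genes, and 18.3% over those whose mean count reached 1000. Dppa5a and Pou5f1 had the highest levels of these markers per transcript length, at 61653 and 24090 mean normalized counts per kb. Of 25 listed markers of the cleavage-stage-like state, 2 had a row; Calcoco2 stood at 3.10 ± 0.14 (adjusted p-value 3.28e-107) and Arg2 at 0.45 without a call.

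In the authors' deposited table, 37 of the 63 genes (58.7%) were called, 12 positive and 25 negative. Among all 17110 genes, 30.5% were called, 14.6% positive and 15.9% negative. After centring on ribosomal protein genes, the calls were 1864 positive and 3508 negative over all genes, in place of 2492 and 2719, and 10 positive and 26 negative among the 63. The genes studied differed from all genes more on the negative side, at 39.7%, than on the positive side, at 19%. Their median log2 fold change was -0.50, beside 0.01 for all genes. With the authors' further limit of an absolute log2 fold change over 0.5, 10 were positive and 24 negative, beside 9.4% and 12.1% of all genes. The mean count bears on these shares: 13 of 32 genes with a mean count under 50 were called (40.6%), against 20.7% of all such genes, and 9 of 10 with at least 1000 (90%), against 31%.

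The calls were not divided alike among the subfamilies. In the authors' deposited table, collagens gave 4 positive and 12 negative calls, around a median of -0.83. Laminins gave 3 positive and 2 negative calls, with a median of -0.12. Lysyl oxidases gave 0 positive and 4 negative calls, with a median of -1.59. Integrins gave 5 positive and 7 negative calls, with a median of -0.50. Subfamilies of 5 and 9 genes move by many percentage points with a single call, and the difference between subfamilies was not tested.

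**Figure D1:**
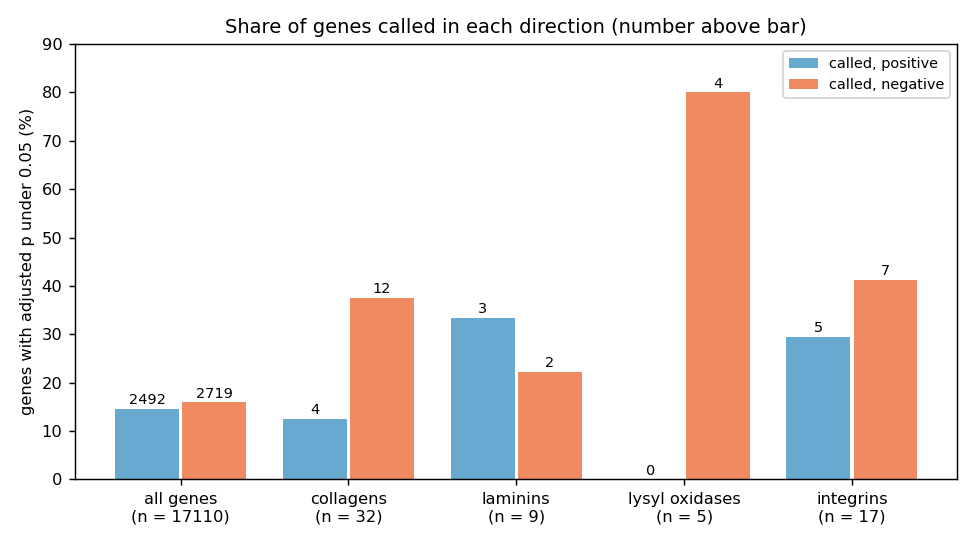
Percentage of genes called in the authors' deposited table (vertical axis, adjusted p-value under 0.05), positive and negative separately, for all genes and for each subfamily, with the number of genes above each bar. All genes split almost evenly (14.6% and 15.9%), collagens lie mostly on the negative side (12 of 32) and lysyl oxidases gave 0 positive and 4 negative calls.

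**Figure D2:**
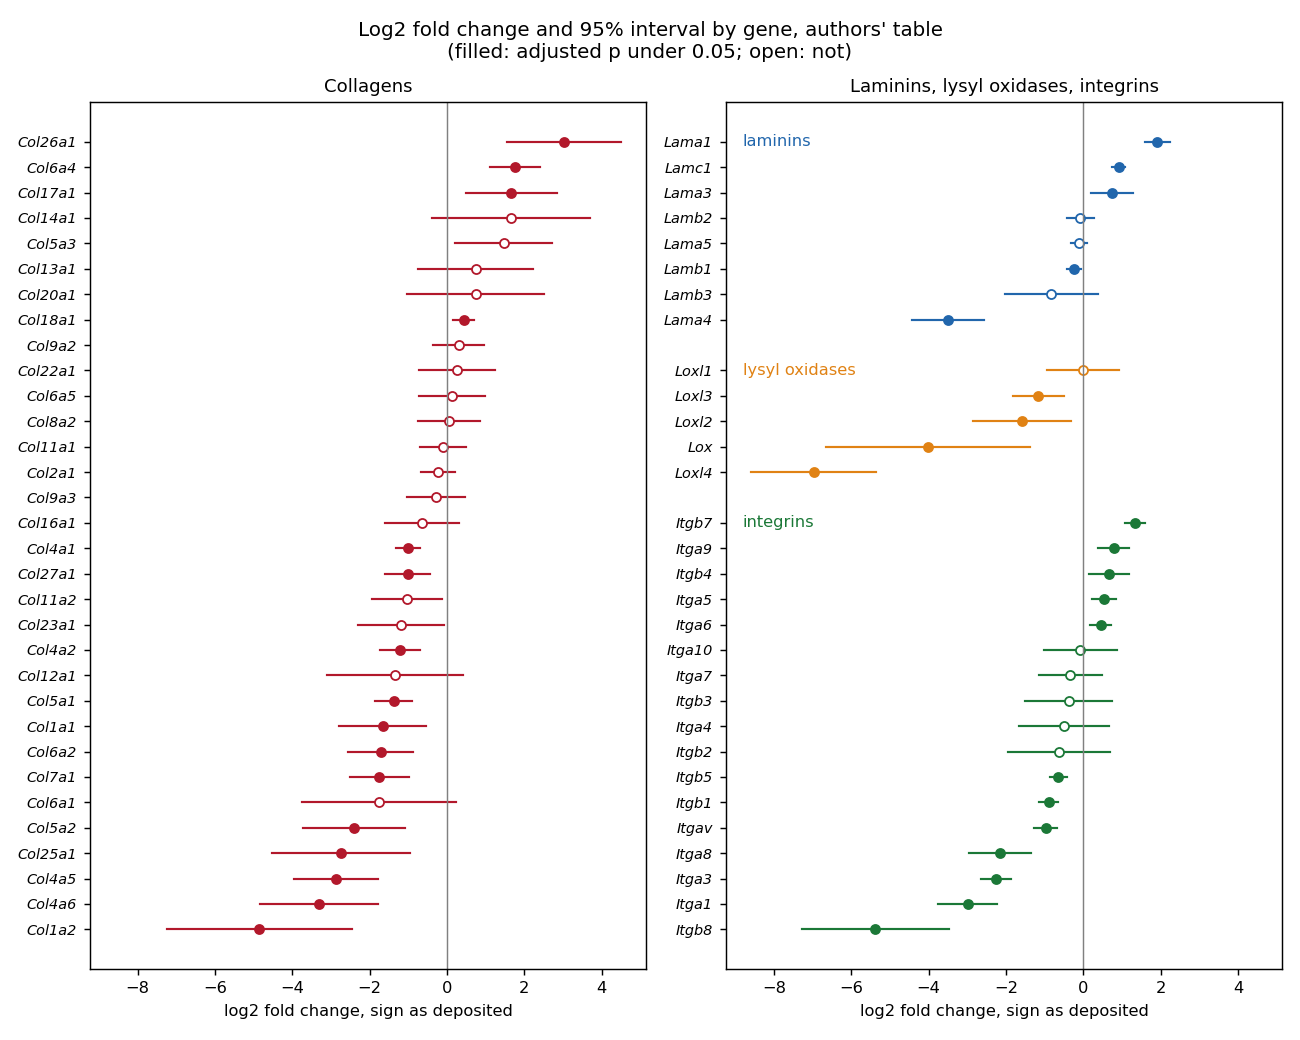
Log2 fold change, sign as deposited (horizontal axis), of the genes of the 4 subfamilies, 1 laminin left out, with a 95% interval of 1.96 standard errors; filled points have an adjusted p-value under 0.05. Loxl4 at -6.98 is the most negative gene and Col26a1 at 3.03 the most positive, and the laminins cross 0 with Lama1 at one end and Lama4 at the other.

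Basement membrane collagens come first, since type IV collagen is the network that every basement membrane is built on. Its chains assemble as sets: Col4a1 with Col4a2 is the common form, and Col4a5 with Col4a6 a form of specialised membranes. In the authors' deposited table, all 4 type IV chains with a row were called negative, beside 15.9% of all genes. The median of these chains was -2.05. Col4a1 (ENSMUSG00000031502) had a mean count of 330.3 and a log2 fold change of -1.01 ± 0.16 (adjusted p-value 1.4e-09). Col4a2 (ENSMUSG00000031503), its partner chain, had a mean count of 117.6 and -1.22 ± 0.26 (adjusted p-value 2.19e-05). Each value of this common pair lies within the 95% interval of the other (-1.32 to -0.71 for Col4a1 and -1.73 to -0.71 for Col4a2). The second pair lay lower, with Col4a5 at -2.88 ± 0.56 (adjusted p-value 2.42e-06) and Col4a6 at -3.31 ± 0.78 (adjusted p-value 0.000171), both at low mean counts of 31.8 and 12.8.

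Each of these pairs is a pair of neighbouring genes that point away from each other, so their promoters are shown. The sequences are RefSeq windows of GRCm38.p6, from 250 bases before to 50 after the annotated start, written 5′ to 3′ on the strand of the gene. The windows of Col4a1 (chr8:11312777-11313076, minus strand) and Col4a2 (chr8:11312555-11312854, plus strand) share 78 bases, which are in capitals and are reverse complements of each other.
Col4a1: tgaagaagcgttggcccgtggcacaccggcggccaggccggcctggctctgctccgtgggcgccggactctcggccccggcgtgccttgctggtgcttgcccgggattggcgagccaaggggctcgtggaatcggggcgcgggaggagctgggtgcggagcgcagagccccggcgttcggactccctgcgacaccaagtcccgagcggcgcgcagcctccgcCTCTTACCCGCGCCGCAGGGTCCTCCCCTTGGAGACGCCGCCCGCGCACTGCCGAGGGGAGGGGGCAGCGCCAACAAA
Col4a2: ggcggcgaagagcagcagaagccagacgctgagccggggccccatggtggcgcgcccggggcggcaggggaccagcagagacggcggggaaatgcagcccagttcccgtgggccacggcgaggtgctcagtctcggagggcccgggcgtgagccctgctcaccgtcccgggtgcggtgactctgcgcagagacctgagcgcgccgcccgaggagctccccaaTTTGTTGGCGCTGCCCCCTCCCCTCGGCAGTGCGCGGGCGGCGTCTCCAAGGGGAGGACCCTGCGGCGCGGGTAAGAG
The windows of Col4a6 (chrX:141474027-141474326, minus strand) and Col4a5 (chrX:141475169-141475468, plus strand) do not meet and lie 842 bases apart. Capitals here mark matches, on either strand, to the motifs searched, which are given after the account of the integrins.
Col4a6: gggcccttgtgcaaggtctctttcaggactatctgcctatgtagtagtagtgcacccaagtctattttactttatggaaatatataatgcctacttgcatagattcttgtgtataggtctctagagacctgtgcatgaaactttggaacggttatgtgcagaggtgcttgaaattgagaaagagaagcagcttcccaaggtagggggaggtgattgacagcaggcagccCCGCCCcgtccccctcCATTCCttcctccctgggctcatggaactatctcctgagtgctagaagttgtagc
Col4a5: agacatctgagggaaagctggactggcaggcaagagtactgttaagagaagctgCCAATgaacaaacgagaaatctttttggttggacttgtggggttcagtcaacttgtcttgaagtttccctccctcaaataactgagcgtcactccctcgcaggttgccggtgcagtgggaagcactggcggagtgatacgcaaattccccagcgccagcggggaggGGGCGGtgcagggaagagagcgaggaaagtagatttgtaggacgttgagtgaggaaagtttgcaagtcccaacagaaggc
The first pair is rich in G and C (74% and 73.7%), the second is not (48.3% and 52.7%).

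Fibrillar collagens, which form the banded fibres of connective tissue, gave 0 positive and 5 negative calls among the 9 with a row in the authors' deposited table. Among all genes, 14.6% were called positive and 15.9% negative. Col5a1, a chain that sets the diameter of type I fibres, had the smallest standard error of the 5 called, with a mean count of 309.0 and a log2 fold change of -1.38 ± 0.24 (adjusted p-value 1.55e-07). Col1a2 and Col1a1, the chains of type I collagen, stood at -4.85 ± 1.22 (adjusted p-value 0.000439) and -1.67 ± 0.58 (adjusted p-value 0.0159). Their mean counts were only 10.1 and 20.9, so the sizes of these fold changes are loosely known. Col5a2 and Col27a1 were also called, at -2.41 and -1.02. The cartilage collagens Col2a1 and Col11a1 were not called, at -0.24 (95% interval -0.67 to 0.20) and -0.11 (-0.70 to 0.48), and both intervals leave out a change by 1 on the log2 scale. Col11a2, a further type XI chain, had a negative value of -1.04 (95% interval -1.95 to -0.12) that missed the threshold (adjusted p-value 0.0785). Col5a3 had a positive value of 1.46 that missed it too (adjusted p-value 0.0718). The 16 collagens not called lay between -1.76 and 1.65.

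Collagens of other classes had calls in both directions in the authors' deposited table. Col7a1, the anchoring fibril of skin and other epithelia, was negative at -1.75 ± 0.39 (adjusted p-value 6.16e-05). Of the beaded-filament type VI chains, Col6a2 was negative at -1.72 (adjusted p-value 0.000461) while Col6a4 was positive at 1.76 ± 0.33 (adjusted p-value 9.69e-07). Col6a5, which lies next to Col6a4 on chromosome 9, stood at 0.12 ± 0.43 and was not called. Among the transmembrane collagens, Col17a1 was positive at 1.66 (adjusted p-value 0.022) and Col25a1 negative at -2.74 (adjusted p-value 0.0114). Col26a1 was positive at 3.03 ± 0.75 (adjusted p-value 0.000357) at a mean count of 14.8. Of the 7 fibril-associated collagens with a row, 0 were called by the authors' DESeq2 test, beside 30.5% of all genes. An unadjusted p-value under 0.05 was found for 0 of the 7. Of these 7, Col9a2 and Col9a3 had the highest mean counts, and they stood at 0.31 and -0.28.

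Col18a1 stood apart from the other collagens by its level. It encodes a basement membrane collagen that carries heparan sulfate and gives rise to endostatin. Its mean normalized count in the authors' deposited table was 9468.9, or 1692 per kb of its longest transcript, and the next collagen on that scale was Col9a2 at 61.5. Its log2 fold change was 0.44 ± 0.14 (adjusted p-value 0.00741), positive and below the authors' limit of 0.5. Summed per kb, the 12 negative collagens made up 7.5% of the collagen level and the 4 positive ones 84.9%, with Col18a1 giving 1692 of their 1709 counts per kb. Over all genes with a transcript length, those shares were 5.4% and 17.0%. Most called collagens were thus negative by number, while most of the collagen level, pooled over libraries, lay in Col18a1.

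**Figure D3:**
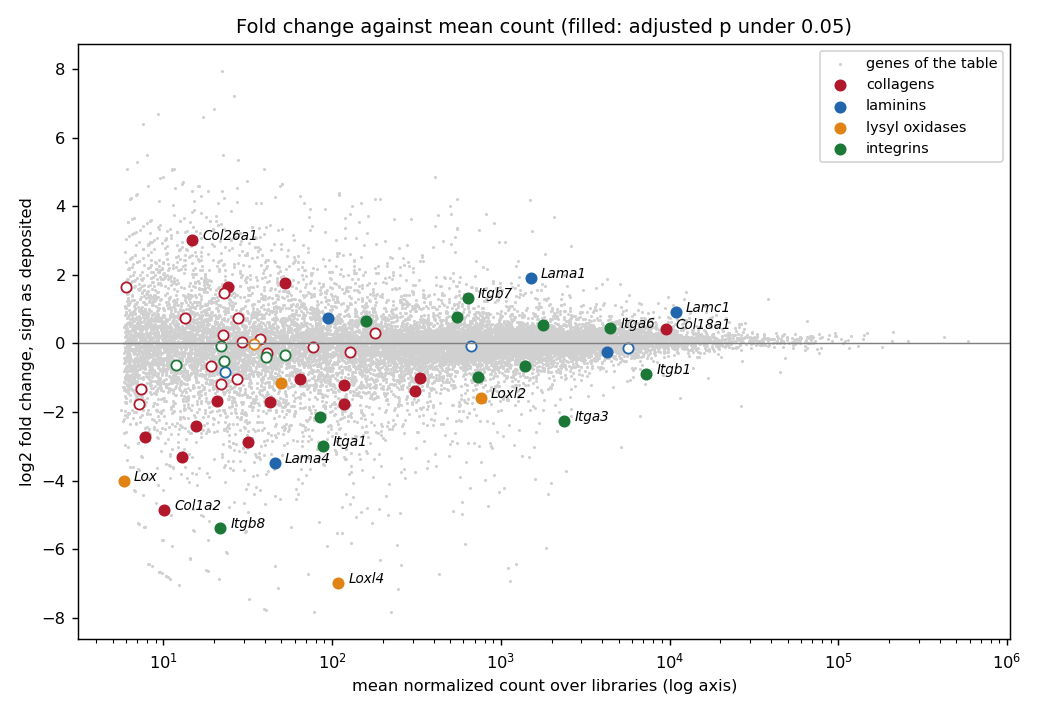
Log2 fold change, sign as deposited (vertical axis), against mean normalized count on a log axis, for the genes of the authors' deposited table (grey) and the 4 subfamilies, 1 laminin left out (coloured; filled where called). Of the 32 collagens, 22 lie at mean counts under 50, 13 of them below 0, while Lamc1, Col18a1, Itgb1 and Lama1 lie among the abundant genes.

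Laminins are cross-shaped trimers of an alpha, a beta and a gamma chain, and the trimer of Lama1, Lamb1 and Lamc1 is the first laminin of the mouse embryo. The chains of this trimer did not move together in the authors' deposited table. Lama1 (ENSMUSG00000032796) had a mean count of 1502.0 and a log2 fold change of 1.91 ± 0.16 (adjusted p-value 5.35e-30), a ratio of 3.76. Lamc1 (ENSMUSG00000026478) had a mean count of 10865.2 and 0.91 ± 0.082 (adjusted p-value 4.36e-27). Lamb1 (ENSMUSG00000002900) had a mean count of 4269.2 and -0.24 ± 0.091 (adjusted p-value 0.0319), and this call was lost when length and GC trends were removed (-0.18, adjusted p-value 0.116). The 95% intervals of the chains do not overlap: 1.59 to 2.23 for Lama1, 0.75 to 1.07 for Lamc1 and -0.41 to -0.06 for Lamb1. A test of the difference between chains was not run, since they share libraries.

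The other alpha chains spread as widely. In the authors' deposited table the most negative laminin was Lama4, an alpha chain of vascular and mesenchymal basement membranes, at -3.50 ± 0.47 (adjusted p-value 2.58e-12) and a mean count of 45.6. Lama3, an epithelial chain that binds integrin alpha6 beta4, was positive at 0.74 ± 0.27 (adjusted p-value 0.0263), a call lost after centring on ribosomal protein genes (0.64, adjusted p-value 0.0572). Lama5, the alpha chain of the laminin that supports self-renewing pluripotent cells in culture, stood at -0.12 with a 95% interval of -0.32 to 0.09, which leaves out a change by 0.5. Lamb2 gave the same picture, at -0.08 (-0.43 to 0.27). Lamb3, a partner of Lama3, was not called, at -0.83 ± 0.61. Per kb, the order of the laminins reported here ran from Lamc1 (1426) through Lamb1 (738.1), Lama5 (496.2), Lama1 (157.7) and Lamb2 (118.5) to Lama3 (8.96), Lama4 (7.54) and Lamb3 (4.75). No spread over samples is given for these levels, so the order of close neighbours such as Lama3 and Lama4 is not resolved.

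Lysyl oxidases all have a row, and none had a positive value in the authors' deposited table. Loxl4 (ENSMUSG00000025185) was the most negative of the 63 genes, at -6.98 ± 0.82 (adjusted p-value 8.76e-16) and a mean count of 108.3. Its 95% interval ran from -8.59 to -5.36. Loxl3 stood at -1.16 ± 0.33 (adjusted p-value 0.00264), and Lox, the founding member, at -4.01 ± 1.35 (adjusted p-value 0.0121) at a mean count of only 5.78. Loxl2, which also acts inside the nucleus, had the highest mean count of the subfamily, 757.8, and a log2 fold change of -1.59 ± 0.64 (adjusted p-value 0.0458). That call was lost when length and GC trends were removed (adjusted p-value 0.0535), and at a threshold of 0.01. Loxl1, which acts on elastin, stood at -0.01 with a 95% interval of -0.95 to 0.93 and a mean count of 34.6.

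The Loxl4 promoter is printed because this gene had the largest fold change of the set. The RefSeq window of GRCm38.p6 lies at chr19:42612757-42613056 on the minus strand, and its capitals mark 3 matches to GGGCGG.
Loxl4: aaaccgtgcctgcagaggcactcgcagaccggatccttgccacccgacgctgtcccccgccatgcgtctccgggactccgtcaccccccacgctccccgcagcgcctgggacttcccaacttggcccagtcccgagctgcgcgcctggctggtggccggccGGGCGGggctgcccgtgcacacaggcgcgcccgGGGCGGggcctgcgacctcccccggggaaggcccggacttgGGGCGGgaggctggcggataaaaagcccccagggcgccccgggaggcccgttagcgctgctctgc

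The standard error of Loxl2 was out of line with its count. Among the 200 genes nearest in mean count in the authors' deposited table, the median standard error was 0.126, and 99.5% of them had a smaller one than Loxl2. Loxl4 and Lox, whose fold changes are large, were at percentiles of 99.5 and 98.5 among their own neighbours, and Itga3 was also at 98.5. Lamc1 was at 16.5. Values of single libraries behind these standard errors were not analysed here.

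**Figure D4:**
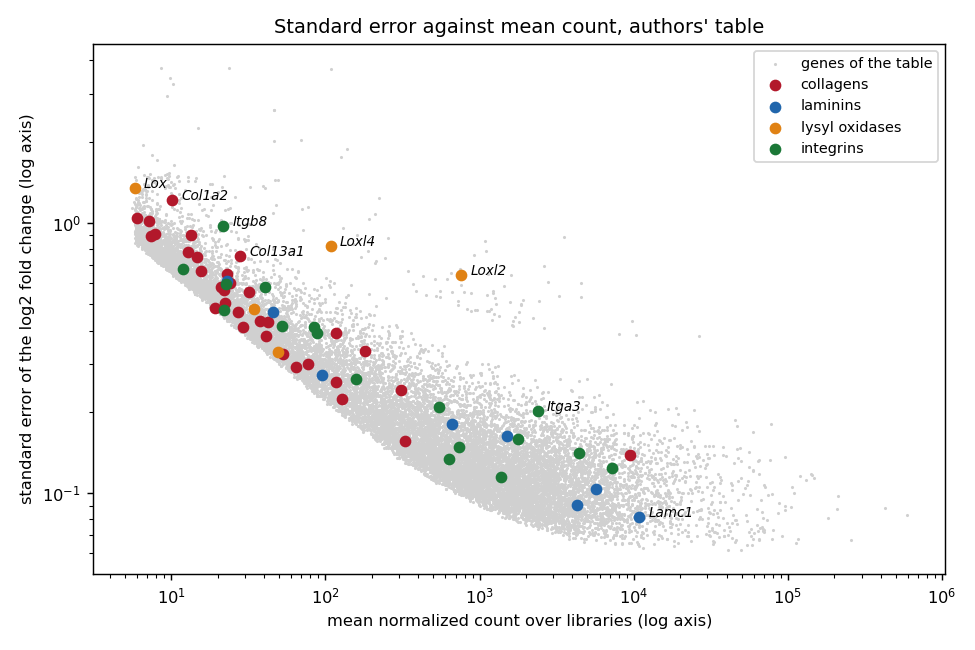
Standard error of the log2 fold change against mean normalized count, both on log axes, for the genes of the authors' deposited table (grey) and the 4 subfamilies, 1 laminin left out (coloured). Loxl2, at a mean count of 757.8 and a standard error of 0.64, lies far above genes of like count, while Lamc1 lies near the lower edge.

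Integrin alpha chains decide which matrix is bound. In the authors' deposited table, 3 of the 10 alpha chains were called positive and 4 negative, beside 14.6% and 15.9% of all genes. Of the laminin receptors, Itga3 (ENSMUSG00000001507) had a mean count of 2378.6 and a log2 fold change of -2.26 ± 0.20 (adjusted p-value 3.02e-27), a 4.78-fold difference. Itga6, the more abundant laminin receptor with 1030 mean counts per kb against 489.3 for Itga3, lay on the other side at 0.45 ± 0.14 (adjusted p-value 0.00678). Itga7, a muscle laminin receptor, was not called (-0.34 ± 0.42). The collagen receptor Itga1 was negative at -2.99 ± 0.39 (adjusted p-value 5.87e-13), and Itga10, a cartilage collagen receptor, stood at -0.07 without a call (95% interval -1.01 to 0.86).

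Receptors for the RGD sequence of fibronectin and vitronectin also divided. In the authors' deposited table, Itgav was negative at -0.98 ± 0.15 (adjusted p-value 7.53e-10), and Itga8 at -2.15 ± 0.41 (adjusted p-value 2.06e-06). Itga5, the fibronectin receptor, was positive at 0.53 ± 0.16 (adjusted p-value 0.00438). Itga9, which binds tenascin and osteopontin, was positive at 0.79 ± 0.21 (adjusted p-value 0.000942), and the related Itga4 was not called at -0.50 ± 0.59.

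Beta chains carry the signal into the cell. In the authors' deposited table, 2 of the 7 were called positive and 3 negative, beside 14.6% and 15.9% of all genes. Itgb1 (ENSMUSG00000025809), the common partner of most alpha chains named here, had the highest level per kb of all 63 genes (1902) and a log2 fold change of -0.90 ± 0.12 (adjusted p-value 9.8e-12). Its positive partners Itga6, Itga5 and Itga9 therefore lay opposite to it in sign. Itgb5 and Itgb8, both partners of Itgav, were negative at -0.65 ± 0.11 (adjusted p-value 2.39e-07) and -5.38 ± 0.97 (adjusted p-value 4.08e-07). The mean count of Itgb8 was 21.7. Itgb7, a beta chain best known from lymphocytes, was positive at 1.33 ± 0.13 (adjusted p-value 1.74e-21) and a mean count of 636.9. Itgb4, the partner of Itga6 in hemidesmosomes, was positive at 0.66 ± 0.26 (adjusted p-value 0.0432), a call lost after centring on ribosomal protein genes (0.57, adjusted p-value 0.0903). Itgb3 and the leukocyte chain Itgb2 were not called, at -0.38 and -0.63 with standard errors of 0.58 and 0.68.

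**Figure D5:**
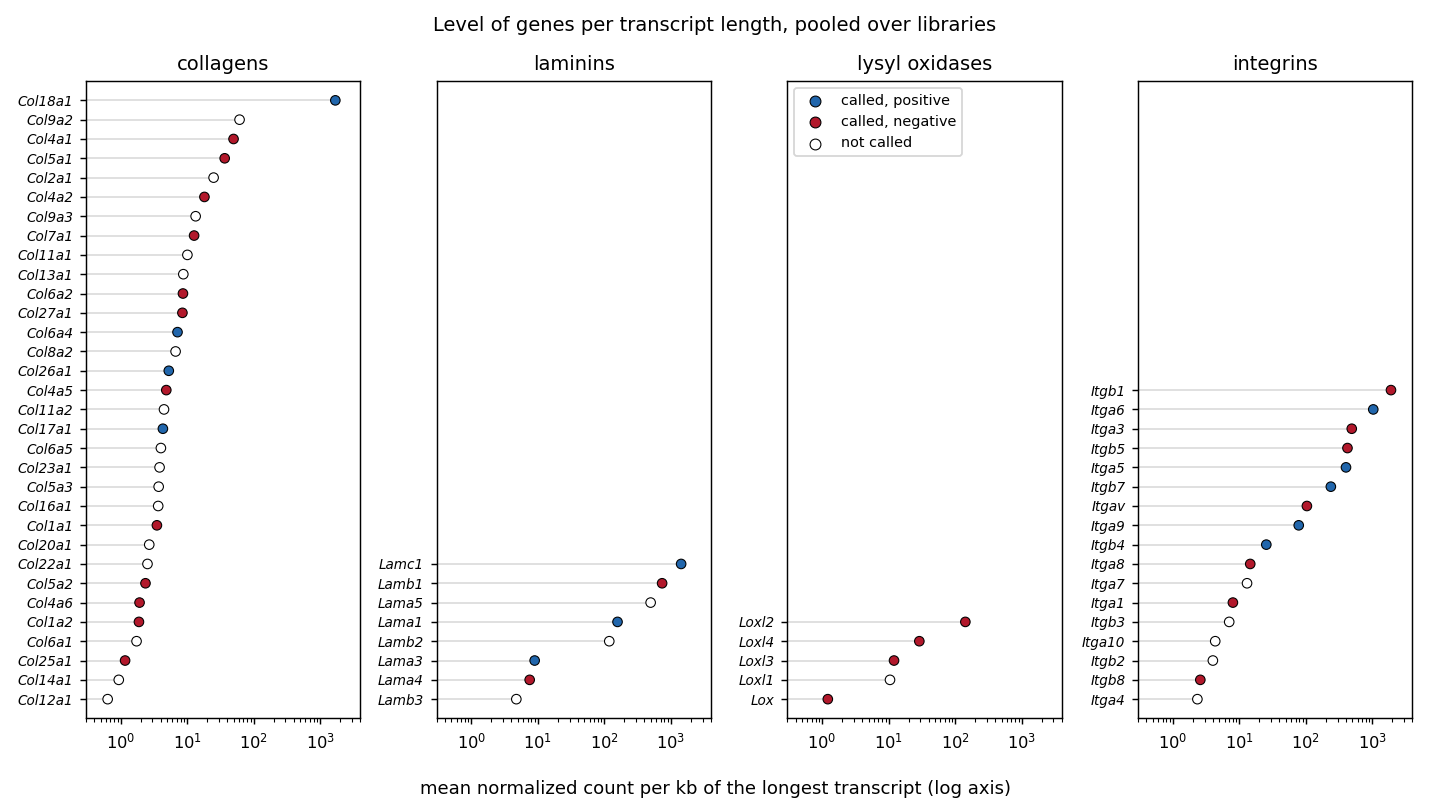
Mean normalized count per kb of the longest transcript (horizontal, log axis) of the genes of the 4 subfamilies, 1 laminin left out, pooled over libraries by the authors; blue points were called positive, red negative and white not called. Itgb1 (1902), Col18a1 (1692), Lamc1 (1426) and Itga6 (1030) lead, and the 12 negative collagens lie at 49.9 or below.

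Of the 26 genes not called, 8 had a 95% interval within a change by 1 on the log2 scale: Col11a1, Col2a1, Col6a5, Col8a2, Col9a2, Lama5, Lamb2 and Loxl1. Only Lama5 and Lamb2 had one within 0.5. For the other 18, the values in the authors' deposited table do not exclude a change by 1, and the widest interval, that of Col14a1, reached 2.04 to either side.

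RefSeq promoter windows were at hand for 41 of the 63 genes, as 45 windows, and were searched on both strands for short motifs. GGGCGG, the GC box, was found in 31 of the 45 windows (68.9%), beside 35.7% of all 32851 windows of the same length. It was present in 18 of 21 windows of negative genes and 3 of 7 of positive genes. These are counts of windows and not of genes, and the only GC box of Col4a1 lies in the bases shared with Col4a2. A link between the motif and the direction of the fold change was not tested. The median GC content was 60.7% in the 45 windows and 52.7% in all windows. CCAAT was found in 33.3% beside 37.4%, TATAAA in 6.67% beside 13.6%, GGAATG in 15.6% beside 14.7% and TGACTCA in 4.44% beside 5.2%. GGAATG is the core bound by TEAD factors and TGACTCA that of AP-1. Matches of different motifs were counted separately even where they share bases, and a match is not a binding site.

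Other genes of matrix assembly were examined from lists of known function, and they too lay on both sides. Of 25 genes for collagen folding and processing in the authors' deposited table, 6 were called positive (24%) and 8 negative (32%), around a median of -0.13. For this list and the matrix and receptor lists that follow, the shares over all genes were 14.6% positive and 15.9% negative. Bmp1, which trims procollagen and activates lysyl oxidase, was negative at -3.23 ± 0.33 (adjusted p-value 1.89e-21), while Pcolce, the enhancer of that trimming, was positive at 1.26 ± 0.11 (adjusted p-value 2.43e-28). Plod2, a collagen lysyl hydroxylase, was negative at -0.91 ± 0.13 (adjusted p-value 3.8e-11). Serpinh1, the collagen chaperone, and the prolyl hydroxylases P4ha1 and P4ha2 were also negative, at -1.65, -1.27 and -1.11. Crtap, Pcolce2 and Adamts14, of the same list, were called positive at 0.91, 0.94 and 1.07.

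Of 30 other matrix glycoproteins, 6 were called positive (20%) and 11 negative (36.7%) in the authors' deposited table, around a median of -0.31. Nid1, which links laminin to type IV collagen, was positive at 1.69 ± 0.17 (adjusted p-value 1.29e-20). Spp1 (osteopontin), a ligand of RGD receptors and of Itga9, was positive at 1.30 ± 0.094 (adjusted p-value 8.39e-41). Thbs1, a thrombospondin, was negative at -5.85 ± 0.62 (adjusted p-value 2.63e-19). Fn1, the ligand of Itga5, was positive at 0.58 ± 0.18 (adjusted p-value 0.00523) with a mean count of 25846.6.

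On the receptor side, 33 integrin adaptors and adhesion kinases gave 8 positive (24.2%) and 12 negative (36.4%) calls in the authors' deposited table. Their median was -0.01. Parva, a partner of integrin-linked kinase, was negative at -3.46 ± 0.24 (adjusted p-value 1.17e-45), and its relative Parvb was positive at 0.90 ± 0.19 (adjusted p-value 1.85e-05). Tes and Fermt1, focal adhesion proteins, were negative at -2.15 and -2.51. The 13 non-integrin receptors gave 2 positive (15.4%) and 7 negative (53.8%) calls around a median of -0.66. They were led by adjusted p-value by Ddr1 (-0.76), Sdc2 (-1.77) and Cd44 (-3.31). The 22 proteases and inhibitors gave 2 positive (9.09%) and 8 negative (36.4%) calls around a median of -0.21. They were led by adjusted p-value by Mmp25 (-2.61), Adamts1 (-2.79) and Mmp16 (-3.04).

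Markers of other cell types were read from the same comparison, and their part in the matrix values was not tested. The share called was 63.6% for trophectoderm, 50% for fibroblast, 27.3% for endoderm and 28.6% for endothelial and blood markers with a row. Among all genes it was 30.5%. All 11 trophectoderm markers with a row, of 12 listed, had negative values in the authors' deposited table, and 7 were called, led by adjusted p-value by Krt19 (-4.73), Krt8 (-4.39) and Krt18 (-3.96). Of 18 fibroblast markers, 10 had a row: Tagln (-5.96), Twist1 (-2.54) and Acta2 (-1.95) were negative, Pcolce (1.26) and Meox1 (3.88) positive, and the other 5 were not called. Of 15 endoderm markers, 11 had a row, with Dab2 (-2.18) and Plat (-2.02) negative and Hnf4a (3.24) positive. Gata6 and Gata4, which define that lineage, were not called, at -1.37 ± 0.81 and -0.59 ± 0.71. Their mean counts were only 9.1 and 14.7, so these values are loosely known. Of 12 endothelial and blood markers, 7 had a row, and Tek (1.30) and Pecam1 (1.12) were called positive. Gata1 (1.24), Tie1 (0.93), Tal1 (0.92), Cd34 (0.57) and Kdr (-0.06) were not called. Levels of these markers in each sample were not analysed here.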

How the data were processed

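Polyadenylated RNA of sorted mouse embryonic stem cells was sequenced in 6 libraries, 3 per group. Per the submitters' processing notes, the tools were FastQC 0.12.1, Trimmomatic 0.39, STAR 2.7.11b, RSEM 1.3.3 and DESeq2 1.45.3, with build GRCm39. The annotation release, model formula and reference group are not given in the sources used here. Per the file headers, the authors' deposited table carries DESeq2's columns: the mean normalized count (a signal pooled over libraries), the log2 fold change with its error, the statistic (a score equal to their ratio within 5.77e-07), and the p-value and adjusted p-value. The call column deposited by the authors equals an adjusted p-value under 0.05 with an absolute log2 fold change over 0.5, with 0 exceptions.

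A count table was not used: its 6 columns bear run and barcode names that match no sample label. The count-based fits planned for it were therefore not run, and edgeR was not used. Nothing was refitted. From the deposited values were computed calls per subfamily, medians, 95% intervals (1.96 standard errors), levels per kb of the longest GENCODE M21 transcript (GRCm38, matched by Ensembl ID for 63 of 63 genes and 16795 of all), and the percentile of each standard error among the 200 genes nearest in mean count. The alternatives were recomputed with Python 3.11.15 and statsmodels 0.14.6, and the procedure was run on simulated data. Those data were drawn with the deposited standard errors, so they check the computation and not the deposited calls. Promoter sequences are from RefSeq, GRCm38.p6, by symbol.

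Named were all genes called with an absolute log2 fold change over 0.5 and, of the others, the 4 of highest mean count per subfamily, all lysyl oxidases, and the 3 smallest p-values of each list; other names were chosen after their values were seen. Of the members, 1 laminin is counted in the totals, but its own values are not reported here. The members and lists were chosen with earlier results of these data known.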

Additional observations from a re-analysis of the deposited data

How the results depend on the processing

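No paired analysis was possible because the deposited comparison has no per-sample values and the count columns carry no replicate number. For the same reason the edgeR fit, DESeq2 size factors, the count filter and the fits that leave out a replicate were not run, and whether 1 library decides a value is not answered here. Centring on the median of all genes (0.01) and recomputing the adjustment changed no call of the 63 genes. Centring on 76 ribosomal protein genes (0.093) and removal of length and GC trends were chosen after seeing the data. Of 315 values of single genes under 5 alternatives, 298 kept direction and call, 14 gained or lost a call, and 3, of genes not called in either case, changed sign. Those were Col8a2 after ribosomal centring (0.053 to -0.04), and Lamb2 (-0.079 to 0.012) and Loxl1 (-0.0093 to 0.064) without length and GC trends.

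At an adjusted p-value under 0.01, 29 of the 63 genes were called, 9 positive and 20 negative, beside 22.9% of all genes. The negative calls were 10 collagens, 7 integrins, 1 laminin and 2 lysyl oxidases. An absolute log2 fold change over 0.5 left 1 negative laminin. Over 1, it left 5 positive and 21 negative genes, beside 13.3% of all genes called: 3 positive and 12 negative collagens, 1 positive and 1 negative laminin, 4 negative lysyl oxidases, and 1 positive and 4 negative integrins. With a mean count of at least 50, which keeps 31 of the 63 genes, 10 positive and 14 negative calls were left, beside 33.9% of all 12658 genes so filtered, with 2 positive and 5 negative collagens, 1 negative laminin and 2 negative lysyl oxidases, whose median became -4.28 over Loxl4 and Loxl2 alone. These changes follow from the stricter limits themselves. Without length and GC trends, 1 negative laminin call was left. Col5a3 gained a call there (1.60, adjusted p-value 0.044) and Col11a2 after ribosomal centring (-1.13, adjusted p-value 0.0496); the cause was not tested. Subfamily medians kept their sign in each alternative run: -0.92 to -0.63 for collagens, -0.21 to -0.064 for laminins, -4.28 to -1.54 for lysyl oxidases and -0.59 to -0.41 for integrins. Precision is limited by count: the 32 genes with a mean count under 50 had a median standard error of 0.597, and the 10 with at least 1000 had 0.131.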

Other observations

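Some pairs of neighbouring genes of these families had only 1 gene called in the authors' deposited table. Besides the type IV pairs, 2 pairs described here lie side by side on the same strand with no protein-coding gene between them. Col6a2 and Col6a1 on chromosome 10 stood at -1.72 and -1.76, of which only Col6a2 was called; the standard error of Col6a1 was 1.02. Col6a5 and Col6a4 on chromosome 9 stood at 0.12 and 1.76, of which only Col6a4 was called. The 95% intervals of Col6a1 (-3.76 to 0.23) and Col6a5 (-0.73 to 0.97) include 0, so their signs are not resolved.

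Summed per kb over the 63 genes, the 12 positive genes made up 50.7% of the level and the 25 negative genes 40.2%. Itgb1 (1902 mean counts per kb) was the largest part of the negative share. Over all genes with a transcript length, those shares were 17.0% positive and 5.4% negative. These levels are pooled over libraries. Of the 10 members whose mean count was 1000 or more, 5 were called positive and 4 negative. Their median log2 fold change was 0.16, against -0.74 for the 32 members under 50. The medians over the whole deposited table differed in the same direction, by less, at 0.057 and -0.07 for these count ranges. In the upper range, 18.3% of all genes were called positive and 12.6% negative. In the lower range, those shares were 9.43% and 11.2%.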
